A study of Mus musculus with 12 samples.

Results

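The genes described are 10 genes known for their expression in the neurons of the cerebellum, followed across whole-brain arrays of wild-type and Il18-knockout mice. Pcp2, Car8, Itpr1 and Calb1 are known from Purkinje cells, Cbln1, Cbln3, Neurod1, Zic1 and Zic2 from granule cells, and En2 from the patterning of the midbrain and cerebellum. Every probe that the array files name for one of them was used, which gave 15 probes, out of 26499 gene names and 37202 probes that passed the filter on dim probes. All 15 were well above background on 12 of 12 arrays, so no member was lost to the filter. That includes Pcp2 and Cbln3, which are known to be nearly restricted to the cerebellum, whereas Calb1, Itpr1, Neurod1 and Zic1 are also known from neurons of the forebrain.

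Purkinje cells are the output neurons of the cerebellar cortex, large inhibitory cells that each receive contacts from very many granule cells. Granule cells are small excitatory neurons whose parallel fibres end on Purkinje cell spines, and Cbln1, which granule cells release, helps form and maintain those synapses. Zic1 and Zic2 are zinc finger factors of granule cell precursors, Neurod1 is a basic helix-loop-helix factor needed for granule cell survival and differentiation, and En2 is a homeodomain factor that patterns the cerebellar folia. Itpr1 is the calcium release channel gated by inositol trisphosphate, Car8 binds that channel, and Calb1 is a calcium buffer. In RNA of a whole organ, fewer cells of a type and less RNA per cell cannot be told apart.

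The mice were of the BALB/c strain, wild type or knockout for Il18, the gene of the inflammatory cytokine interleukin-18, and received no treatment. Whole brains were taken at 6 or 12 weeks of age, kept in RNAlater, and their total RNA was labelled with Cy3 and hybridised to 1-colour Agilent arrays. There were 3 arrays in each of the 4 groups, labelled as biological replicates, and the number of arrays limits the precision. Nothing in the labels gives the sex of the animals or how the knockout allele was made.

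On each array 65.9% to 76.2% of the non-control spots passed the mark for signal above background, and the 75th percentile of signal ran from 890 to 1188 intensity units. The Il18 probe was lower in the knockout, by -1.84 at 6 weeks and -1.94 at 12 weeks on the log2 scale (limma, adjusted p = 3.9e-05 and 1.8e-05), and its lowest wild-type array stood at 1.51 against a highest knockout array of -0.17. The file headers place the arrays on 2 slides. Slide 2 held the 3 arrays of the 12-week knockout and replicate 3 of the 6-week knockout, and slide 1 held the other 8, among them each of the 6 from wild type. At 12 weeks no slide held both genotypes. Slide and genotype can be separated there only through the single 6-week knockout array on slide 2.

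All levels given are log2 of the processed signal minus the log2 of the array's own 75th percentile, and a change is a difference of group means of such levels ± SE. A probe was called when its p-value from limma, adjusted by Benjamini-Hochberg over all 37202 probes, was under 0.05. Counts at an unadjusted p under 0.05 have no share of all probes beside them, so no excess is read from them. Where a gene had 2 probes, the brighter one stands for the gene and the other is named as its second probe. Levels of different genes are not compared, since each probe has its own response.

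The probes are 60 bases long and their positions are on genome build mm9. The Neurod1 gene was read by 2 probes on chromosome 2, the brighter at chr2:79293621-79293680 and the second at chr2:79294309-79294368, both on the minus strand. The Zic1 gene was read by 2 probes on chromosome 9, at chr9:91255425-91255484 and chr9:91257301-91257360, on the same chromosome as the Il18 probe at chr9:50389761-50389820. Stop codons in all reading frames mark 7 of the 15 probes, among them the brighter Neurod1 probe and the probes of Zic2 and En2, so those stretches cannot lie wholly inside a coding sequence. The second probes of Neurod1 and Zic1 have 2 open frames each. No gene models of this build were used here, so exon positions are not given. They are shown because their results differed from those of the brighter probes of the same genes.
Neurod1 second probe: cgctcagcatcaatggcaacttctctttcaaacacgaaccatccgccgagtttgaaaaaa
Zic1 second probe: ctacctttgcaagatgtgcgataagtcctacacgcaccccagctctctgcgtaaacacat
G and C make up 45% of the first and 50% of the other, against 23.3% of the brighter Neurod1 probe and 35% of the brighter Zic1 probe. Base composition is given because the changes at 12 weeks followed it across the array, as described with the 12-week results.

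Promoters of Neurod1, Cbln3 and Zic1 are shown because each of these genes had a probe called at 12 weeks. RefSeq promoter sequences on build GRCm38.p6 were matched for 4 of the 10 genes, Pcp2, Cbln3, Neurod1 and Zic1. Each line gives the 250 bases before the start, 5′ to 3′ on the gene's strand, at chr2:79456637-79456886 for Neurod1, chr14:55884257-55884506 for Cbln3 and chr9:91365769-91366018 for Zic1, all on the minus strand. Capitals mark CANNTG, the E-box that basic helix-loop-helix factors such as Neurod1 recognise, which reads the same on both strands.
Neurod1: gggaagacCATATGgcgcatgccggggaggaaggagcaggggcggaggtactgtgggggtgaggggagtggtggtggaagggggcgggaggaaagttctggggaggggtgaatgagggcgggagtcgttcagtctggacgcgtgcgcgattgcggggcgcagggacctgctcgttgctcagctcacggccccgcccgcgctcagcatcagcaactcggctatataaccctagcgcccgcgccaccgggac
Cbln3: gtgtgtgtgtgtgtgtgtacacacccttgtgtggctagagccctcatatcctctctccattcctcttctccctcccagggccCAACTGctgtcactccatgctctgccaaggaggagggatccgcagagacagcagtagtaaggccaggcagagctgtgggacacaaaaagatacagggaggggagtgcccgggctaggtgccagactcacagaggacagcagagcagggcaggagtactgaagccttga
Zic1: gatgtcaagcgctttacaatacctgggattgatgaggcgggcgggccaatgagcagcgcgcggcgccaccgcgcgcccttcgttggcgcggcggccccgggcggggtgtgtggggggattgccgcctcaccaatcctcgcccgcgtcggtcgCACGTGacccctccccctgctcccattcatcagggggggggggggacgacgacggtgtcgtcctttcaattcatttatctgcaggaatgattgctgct
Each of the 3 windows held 1 such motif, and 66.2% of the 32851 promoters in the table held at least 1. The narrower CAGATG or its reverse complement CATCTG was in none of these 3 windows, in 2 of the 4 windows of Pcp2 and in 14.4% of all promoters. These matches describe the windows only.

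The first comparison asked how the 10 genes stood in the knockout at 6 weeks. In the fit with no slide or column term their levels lay close to wild type. There 0 of 10 genes and 0 of 15 probes were called, against 0.624% of all probes (limma). Of the 10, 3 were higher and 7 lower, with a median change of -0.05 and a range from -0.45 for Cbln3 to 0.12 for Cbln1. At an unadjusted p under 0.05 there was 1 of 15 probes, the second probe of Calb1. With slide as a fixed block 0 of 10 were called at 6 weeks as well, against 0.339% of all probes. Under median scaling 8 were higher and 2 lower, with a median change of 0.04 beside 0.13 over all probes. With slide column as a fixed block 0 of 10 were called too, but 1 was higher and 9 lower, with a median change of -0.27. At 6 weeks all wild-type arrays were in column 2 and all knockout arrays in column 1, so no array of this age separates column from genotype. The column fit separates them only through 12-week wild-type replicate 1, which was in column 2.

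**Figure D1:**
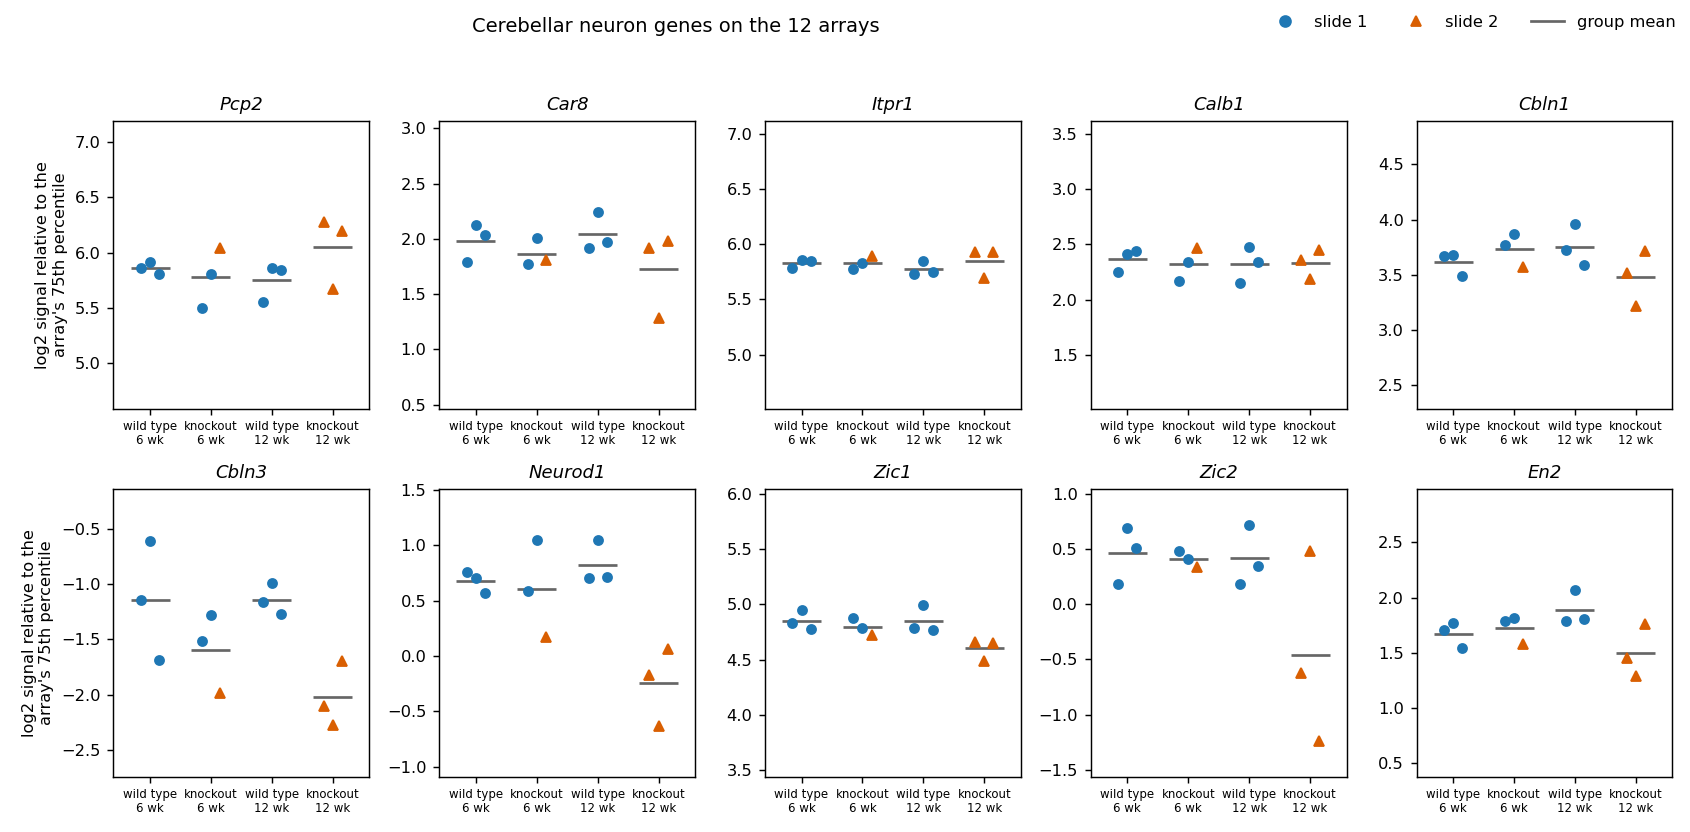
Level of each of the 10 genes on the 12 arrays, from its brighter probe, as log2 signal relative to the array's 75th percentile, with every panel spanning the same range. Points are arrays, marked by slide, and bars are group means. The 12-week knockout arrays of Neurod1, Cbln3, Zic1 and En2 lie below all 12-week wild-type arrays, and all of them are on slide 2.

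Among the Purkinje cell genes at 6 weeks, Pcp2, which encodes a regulator of G protein signalling, stood at 5.86 ± 0.05 (SD, n = 3) in wild type and 5.78 ± 0.27 in the knockout. Itpr1 was at 5.83 ± 0.04 and 5.83 ± 0.06. Car8 stood at 1.99 ± 0.17 and 1.86 ± 0.13, and the brighter Calb1 probe at 2.37 ± 0.10 and 2.32 ± 0.15. The groups overlapped for each of these 4 genes. The 95% interval of the change ran from -0.47 to 0.31 for Pcp2 and from -0.18 to 0.18 for Itpr1, so for Itpr1 a change of more than 0.18 in either direction lies outside it.

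Among the granule cell genes at 6 weeks, Cbln1 stood at 3.61 ± 0.11 (SD, n = 3) in wild type and 3.74 ± 0.15 in the knockout, and Zic1 at 4.85 ± 0.09 and 4.80 ± 0.08. Cbln3, a cerebellin that granule cells make and that needs Cbln1 to leave the cell, varied most, with wild-type arrays at -1.14, -0.61 and -1.69 and knockout arrays at -1.51, -1.28 and -1.98. The change of Cbln3 was -0.45 ± 0.27 (adjusted p = 0.393). The knockout array at -1.98 is the one on slide 2, and it was the lowest of its group for 6 of the 10 genes and the highest for 3. Wild-type replicate 3, on slide 1, was also the lowest of its group for 6 of the 10. For Neurod1 the knockout array on slide 2 read 0.18. The other 6-week knockout arrays lay above it at 0.59 and 1.05, as did the wild-type arrays at 0.76, 0.71 and 0.57.

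Age was compared within each genotype, between mice that differ by 6 weeks. In wild type the 10 genes differed little between 6 and 12 weeks, with 0 of 10 called against 0.438% of all probes, and 0 of 10 with an unadjusted p under 0.05. On the brighter probes, 1 of 10 genes had arrays that did not overlap between the ages, against 24.0% of all probes. This was En2, at 1.71, 1.77 and 1.54 at 6 weeks and 1.79, 2.07 and 1.81 at 12 weeks. Its change was 0.22 ± 0.13 (limma, adjusted p = 0.506). All wild-type arrays are on slide 1, so slide does not enter this comparison, but slide column does. The 6-week arrays and 12-week replicate 1 were in column 2, and 12-week replicates 2 and 3 in column 1. With slide column as a fixed block 0 of 10 were called, with 3 higher, 7 lower and a median change of -0.07.

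In the knockout 0 of 10 were called with age, against 1.09% of all probes. At an unadjusted p under 0.05 there were 3 of 10, a cut for which no share of all probes was taken. Neurod1 differed by -0.85 ± 0.22 (limma, adjusted p = 0.074), Zic2 by -0.87 ± 0.35 (0.156) and Zic1 by -0.19 ± 0.09 (0.192). The arrays did not overlap between the ages for 2 of 10 genes, Neurod1 and Zic1, against 25.4% of all probes. Without 6-week knockout replicate 3, the only 6-week knockout array on slide 2, Neurod1 passed with a change of -1.07 (limma, adjusted p = 0.0079), and age and slide cannot be told apart in that fit. With the slide block its change was -0.42 (0.763).

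At 12 weeks, on the brighter probes, 2 of the 5 granule cell genes and En2 fell in the knockout. The other granule cell genes had lower means without a call, and 0 of the 4 Purkinje cell genes were called. Among the second probes, that of Zic1 was called lower and that of Cbln1 was higher without a call. Neurod1 fell by 1.07 ± 0.22, Cbln3 by 0.88 ± 0.27 and En2 by 0.39 ± 0.13 on the log2 scale (limma, adjusted p = 0.0097, 0.031 and 0.047). That is 3 of 10 genes, all down, against 31.4% of all probes called in this comparison, of which 16.2% were up and 15.2% down. A share of 3 in 10 is near that background. Under median scaling, which moves all changes at 12 weeks by 0.12, En2 differed by -0.27 and was not called (adjusted p = 0.123), while Neurod1 and Cbln3 stayed called. The groups did not overlap for 4 of the 10 genes, Neurod1, Cbln3, Zic1 and En2, against 51.9% of all probes. With slide as a fixed block 0 of 10 were called, against 0.0887% of all probes, and the changes of Neurod1, Cbln3 and En2 shrank to -0.42, -0.30 and -0.16 (adjusted p = 0.786, 0.891 and 0.885).

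**Figure D2:**
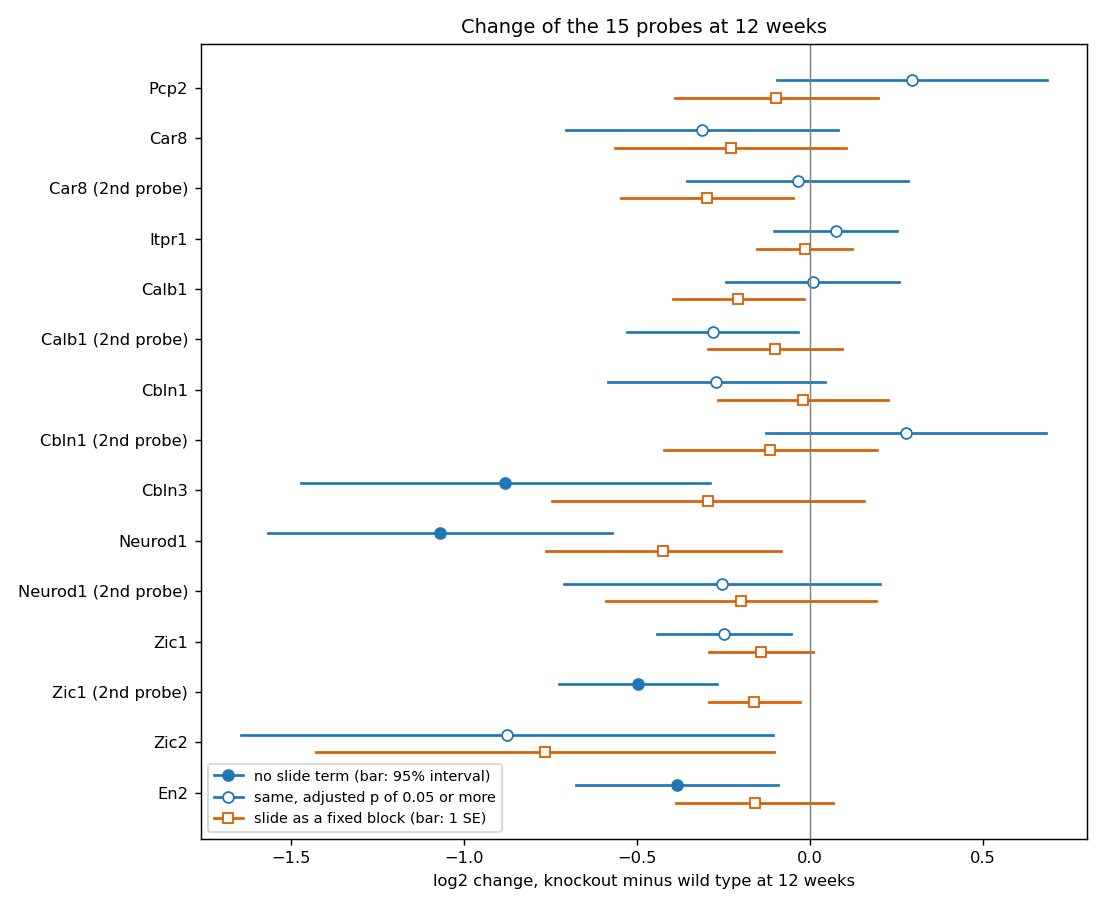
Log2 change between knockout and wild type at 12 weeks for the 15 probes, with 3 arrays a group. Circles are from the fit with no slide term, filled where the adjusted p was under 0.05, with 95% intervals, and squares are from the fit with slide as a fixed block, with bars of 1 SE. The filled circles are those of Cbln3, Neurod1, En2 and the second Zic1 probe, and every square has an adjusted p above 0.05.

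Neurod1 was at 0.71, 1.05 and 0.71 in 12-week wild type and at -0.17, -0.63 and 0.07 in the 12-week knockout. Each knockout array lay below each array of the other 3 groups, the nearest being the 6-week knockout array on slide 2 at 0.18. The fall was 2.10-fold, with a 95% interval of the log2 change from -1.57 to -0.57. It was called without each of the 6 arrays compared in turn, with a highest adjusted p of 0.037. The second Neurod1 probe, whose sequence is printed above, read 0.37, 0.32 and 0.09 in wild type and 0.07, -0.49 and 0.45 in the knockout. Those groups overlapped, and the change of -0.25 ± 0.21 was not called (adjusted p = 0.363).

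Cbln3 was at -1.16, -0.99 and -1.27 in 12-week wild type and at -2.11, -2.27 and -1.70 in the knockout, with no overlap and a 1.84-fold lower mean. Among the 6-week arrays, wild-type replicate 3 at -1.69 lay next to this knockout range and the knockout array on slide 2 at -1.98 lay within it. The call was lost without 5 of the 6 arrays in turn, with adjusted p-values up to 0.095. It held only without 12-week knockout replicate 3. Cbln1, the secreted cerebellin of the same cells, differed by -0.27 ± 0.14 (adjusted p = 0.163) on its brighter probe and by 0.28 ± 0.18 (0.265) on its second.

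En2 was at 1.79, 2.07 and 1.81 in 12-week wild type and at 1.45, 1.29 and 1.76 in the knockout. The highest knockout array lay just under the lowest wild-type array, and the means differed 1.31-fold. The En2 value of an array is the mean of 10 spots of 1 probe. Its call was also lost without 5 of the 6 arrays in turn, with adjusted p-values up to 0.155, and again held only without 12-week knockout replicate 3.

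Zic1 was at 4.79, 4.99 and 4.77 in 12-week wild type and at 4.66, 4.49 and 4.65 in the knockout on its brighter probe. These groups did not overlap, and the change of -0.25 ± 0.09 had an adjusted p of 0.051. Its second probe, whose sequence is printed above, read -0.07, -0.07 and -0.11 in wild type and -0.55, -0.71 and -0.49 in the knockout. That change of -0.50 ± 0.10 was called (adjusted p = 0.0093) and stayed called without each of the 6 arrays in turn, up to an adjusted p of 0.033. The 6-week knockout array on slide 2 read -0.62 on this probe, against -0.38 and -0.19 for the 6-week knockout arrays on slide 1. With the slide block the change was -0.16 (0.790).

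Zic2 showed the widest spread within a group. The 12-week knockout arrays stood at -0.62, 0.48 and -1.24, and the wild-type arrays at 0.18, 0.72 and 0.35. Replicate 2 of the knockout lay within the wild-type range, and the difference of -0.88 ± 0.35 was not called (adjusted p = 0.077). Without that replicate it was -1.35 (adjusted p = 0.0104). The same replicate was the lowest of its group for 9 of the 10 genes, and Zic2 was the exception.

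The Purkinje cell genes gave differences of both signs at 12 weeks, and these depended on the setting. Itpr1 and Calb1 turned from higher to lower with quantile normalization (-0.19 and -0.08), and Calb1 also with normexp background correction (-0.05). With the slide block all 4 were lower, by -0.10 for Pcp2, -0.23 for Car8, -0.02 for Itpr1 and -0.21 for Calb1, and 0 of 4 were called. Pcp2 was at 5.55, 5.86 and 5.85 in wild type and at 6.28, 5.67 and 6.19 in the knockout, a difference of 0.29 ± 0.18 (adjusted p = 0.219). Car8 differed by -0.31 ± 0.18 (0.197), with knockout replicate 2 at 1.29 and the other knockout arrays at 1.92 and 1.98, inside the wild-type range of 1.91 to 2.24. Itpr1 differed by 0.07 ± 0.08 (0.501) and Calb1 by 0.01 ± 0.11 (0.967). The 95% intervals ran from -0.10 to 0.69 for Pcp2, from -0.71 to 0.08 for Car8, from -0.10 to 0.25 for Itpr1 and from -0.24 to 0.26 for Calb1. Pcp2 and Itpr1 were the brightest members, with mean signals of 60952 and 59048 intensity units over the arrays, and none of their spots was marked as saturated. Nor was any other non-control spot on any array, and whether changes are compressed at such signals was not tested.

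Calb1 gave different pictures by probe. The brighter probe stayed between 2.15 and 2.47 on all 12 arrays. The second probe read 0.05, 0.22 and 0.11 in 6-week wild type, -0.33, -0.21 and -0.45 in the 6-week knockout, -0.54, -0.18 and -0.24 in 12-week wild type and -0.73, -0.62 and -0.47 in the 12-week knockout. Its 6-week wild-type arrays lay above all others, and the differences of -0.45 ± 0.11 for genotype at 6 weeks and -0.45 ± 0.11 for age in wild type had adjusted p-values of 0.100 and 0.119. The 2 probes lie 1436 bases apart.

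**Figure D3:**
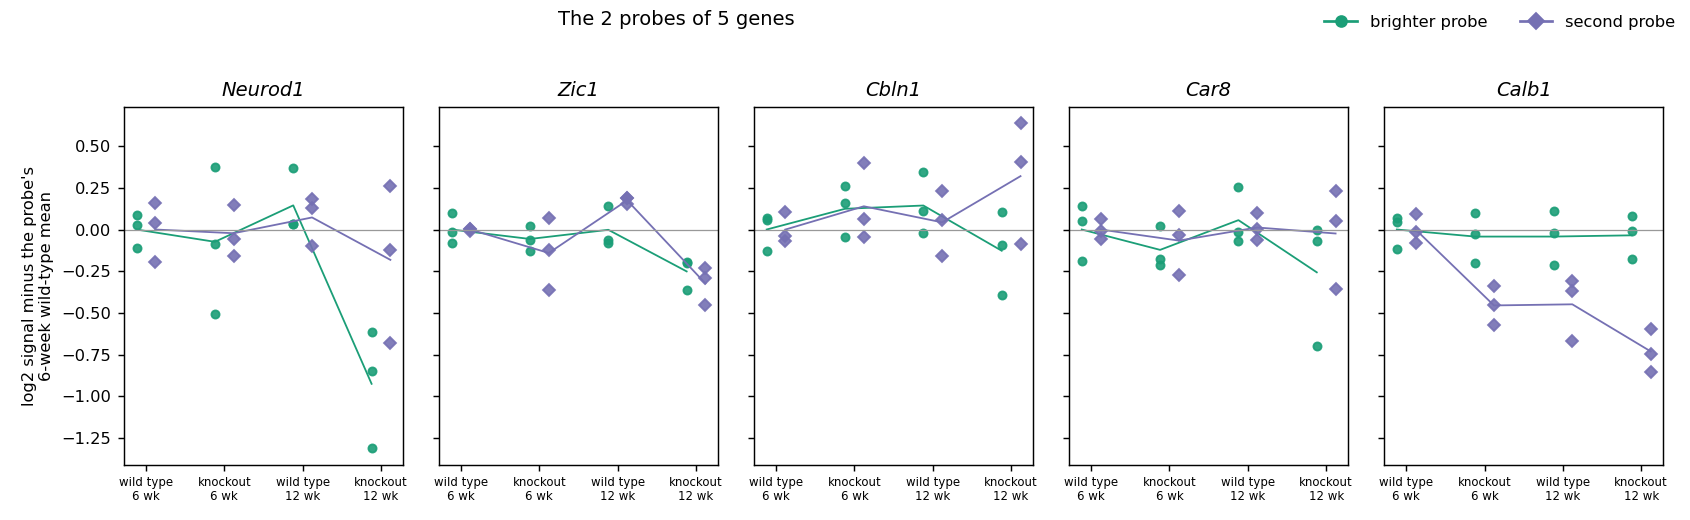
The 5 genes read by 2 probes, as log2 signal minus the same probe's mean in 6-week wild type, with points for the 3 arrays of each group and lines through group means. For Neurod1 the brighter probe drops in the 12-week knockout and the second does not pass the test, while for Calb1 the second probe alone is lower outside 6-week wild type.

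Across the 5 genes with 2 probes the change at 12 weeks differed between the probes by -0.82 for Neurod1, -0.55 for Cbln1, -0.28 for Car8, 0.25 for Zic1 and 0.29 for Calb1 (brighter minus second). The probe pairs of 4 of these genes differ in base composition, and those of Car8 share 28.3% of G and C. Over all kept probes the median change at 12 weeks was -0.46 for the 253 probes with at most 25% of G and C, where 55.7% were called, and it rose to 0.19 in the class above 50% and up to 55%. The brighter Neurod1 probe is in that lowest class, where its own change was -1.07. A like gradient, from -0.32 to 0.19, was seen inside the 6-week knockout between its array on slide 2 and its arrays on slide 1. When every array was centred within classes of probe composition, a setting chosen after seeing the data, Neurod1 changed by -0.59 (adjusted p = 0.029) and its second probe by -0.21 (0.436). In that setting the change was -0.74 (0.051) for Cbln3, -0.34 (0.071) for En2 and -0.63 (0.0070) for the second Zic1 probe. The part of probe composition in these changes was not tested beyond this.

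**Figure D4:**
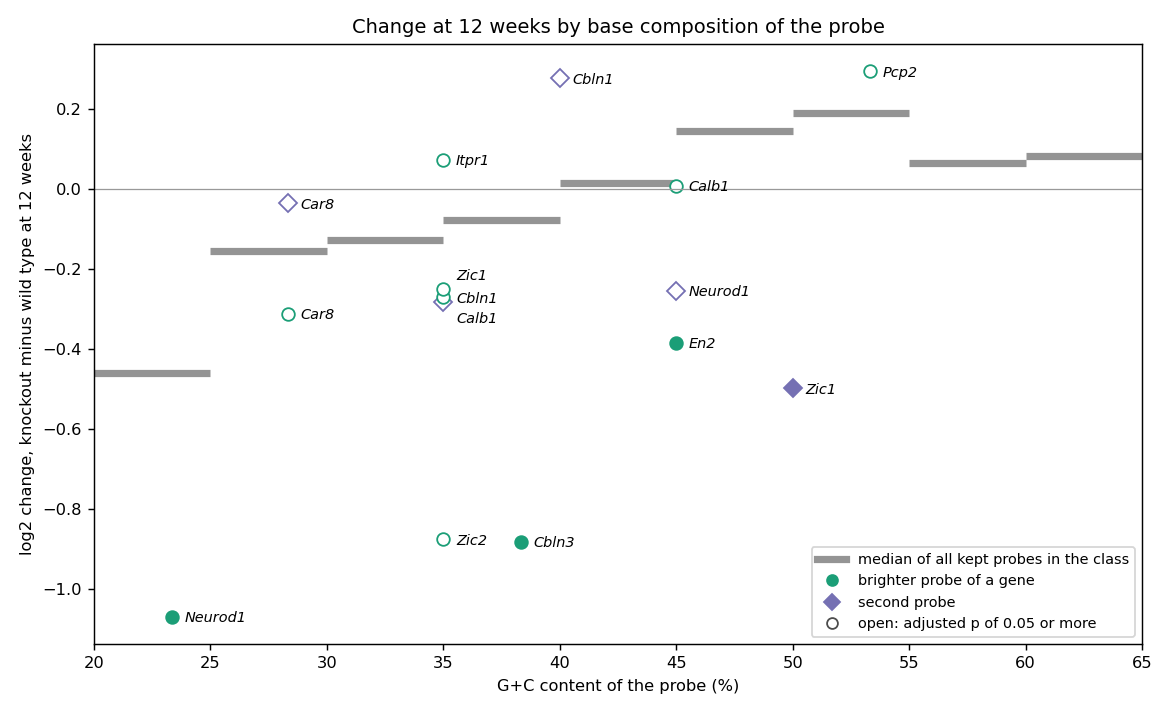
Log2 change between knockout and wild type at 12 weeks against the G and C content of the probe, in percent, for the 15 probes, with grey bars at the median change of all kept probes in each class (upper limit included). Filled marks have an adjusted p under 0.05. The medians run from -0.46 in the lowest class to 0.19, and all of the probes lie below the bar of their class except those of Pcp2 and Itpr1 and the second probes of Car8 and Cbln1.

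The difference between the genotype effects at both ages was tested by an interaction term. It was called for 0 of 10 genes, against 0.102% of all probes. At an unadjusted p under 0.05 there were 2 of 10, a cut for which no share of all probes was taken. Neurod1 had -0.996 ± 0.32 (limma, adjusted p = 0.176) and En2 had -0.44 ± 0.19 (0.245). The fall of Neurod1, Cbln3 and En2 at 12 weeks was therefore not shown to differ from 6 weeks. Without 6-week knockout replicate 3 the interaction of Neurod1 was -1.21 (adjusted p = 0.024), in a fit where slide 2 holds the 12-week knockout alone.

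Other genes of the same cells were read from lists. Of 22 measured genes of the other granule cell list, 0 rose and 5 fell at 12 weeks, with 17 lower and a median change of -0.16, beside a median of -0.0018 over all probes. They were Zic5, Chn2 with -0.43, Cntn2 with -0.33, Pax6 with -0.32 and Barhl1 with -0.24. Of 21 measured genes of the other Purkinje cell list, 6 rose and 3 fell, with a median of 0.12. Of all probes 16.2% were called up and 15.2% down in this comparison, and nothing is read as particular to either list. Gng13 rose by 0.56, Pvalb, a calcium buffer, by 0.53 and the glutamate transporter Slc1a6 by 0.52, while the 3 genes that fell are not named in the text. At 6 weeks 1 of the 22 granule genes and 0 of the 21 Purkinje genes were called, against 0.624% of all probes. With the slide block at 12 weeks, 0 of the 21 Purkinje genes and 1 of the 22 granule genes, Zic5, were called. The medians were then -0.06 for the granule list and -0.0048 for the Purkinje list. Scaling each array to its median in place of the 75th percentile moved the median of all probes at 12 weeks by 0.12, and the calls then split into 24.9% up and 8.39% down, or into 19.9% and 11.3% with normexp background correction. Under median scaling the Purkinje list had 9 up and 1 down and the granule list 1 up and 2 down. Under quantile normalization they had 3 up and 4 down and 0 up and 8 down, beside 14.5% up and 13.8% down of all probes.

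**Figure D5:**
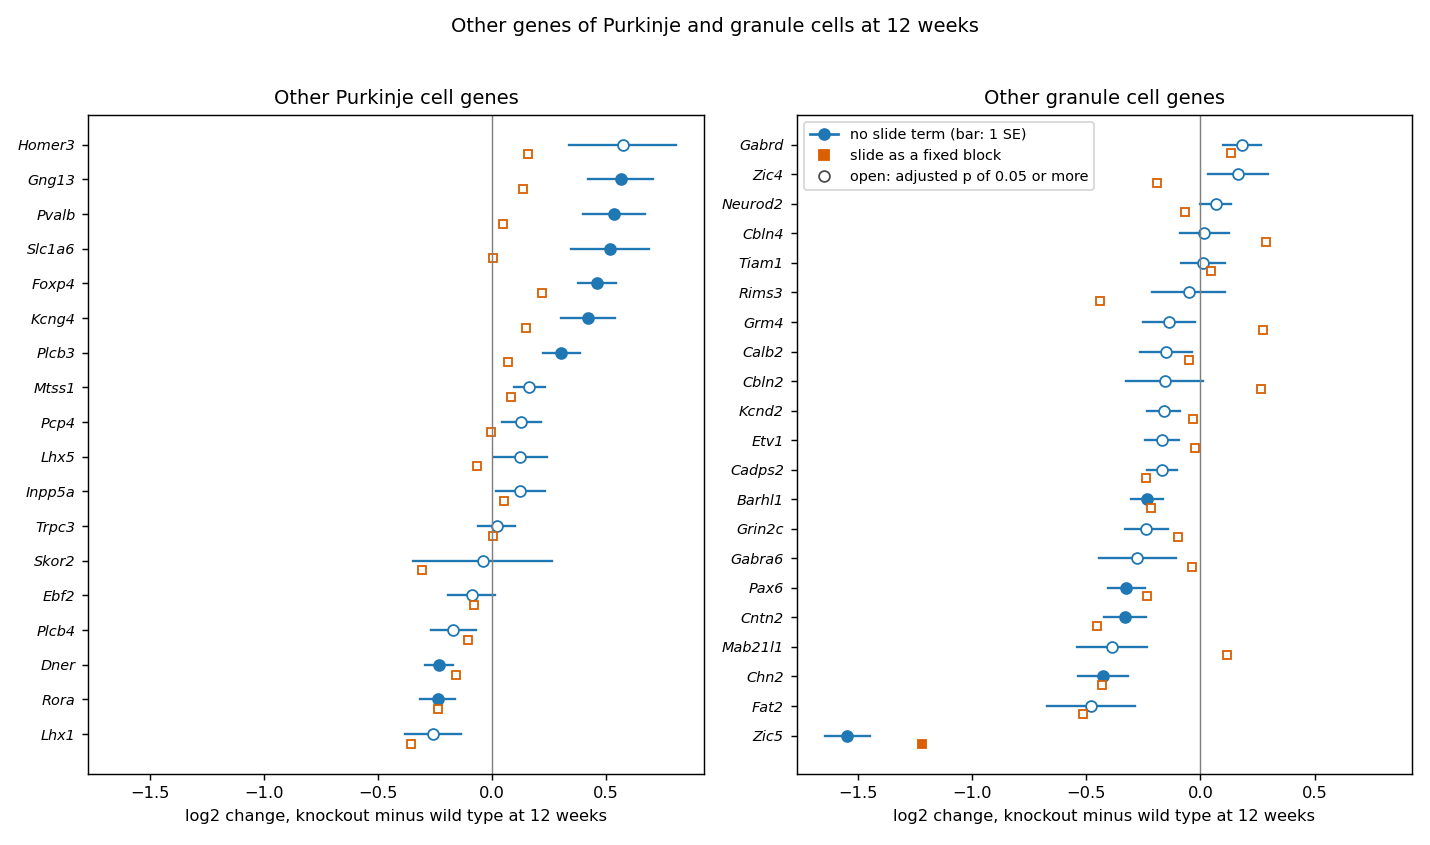
Log2 change between knockout and wild type at 12 weeks for 18 of the 21 measured genes of the other Purkinje cell list and 21 of the 22 of the other granule cell list. Circles are from the fit with no slide term, with bars of 1 SE, squares are from the fit with slide as a fixed block, and filled marks have an adjusted p under 0.05. Zic5 at -1.55 is the lowest and the one gene with a filled square.

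Within the Zic family the changes at 12 weeks were unlike. Zic5 is the gene next to Zic2 in the RefSeq annotation of GRCm38.p6, and Zic4 the gene next to Zic1. Zic5 was at -3.85, -3.65 and -3.77 in 12-week wild type and at -5.41, -5.22 and -5.28 in the knockout, a change of -1.55 ± 0.10 (limma, adjusted p = 5.8e-05) that held with the slide block at -1.22 (0.0149). At 6 weeks it was at -3.83, -3.87 and -3.86 in wild type and -4.36, -4.31 and -4.66 in the knockout, a change of -0.59 ± 0.10 (0.033). The 6-week call was lost without 5 of the 6 arrays in turn and in 10 of 18 other settings, with adjusted p-values there from 0.0502 with the slide block to 0.251 with slide column as a block. The 12-week call held in 17 of 17 such settings, up to an adjusted p of 0.021. Zic5 was dim, with mean signals from 24.4 intensity units in the 12-week knockout to 83.7 in 12-week wild type, and was still marked above background on 12 of 12 arrays. With normexp background correction and an offset of 50 intensity units, its 12-week change was -0.51 and still called (adjusted p = 0.0014). Zic4 differed at 12 weeks by 0.16 ± 0.13 (0.361) on its brighter and -0.18 ± 0.12 (0.279) on its second probe.

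Partners of the members gave 1 rise and 1 fall among 10 measured genes at 12 weeks, a smaller share than the 31.4% of all probes called. Itpr3, a relative of Itpr1, rose by 0.46 ± 0.10 (limma, adjusted p = 0.012), and Fgf8, the signal of the boundary between midbrain and hindbrain where En2 acts, fell by 0.54 ± 0.10 (0.0075). Nrxn2 and Nrxn3, presynaptic neurexins that cerebellins bind, differed by 0.29 and 0.05 (0.054 and 0.648). Neither Itpr3 nor Fgf8 was called with the slide block, at 0.08 and -0.19 (0.881 and 0.735).

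Genes of neighbouring tissue also differed between arrays. Of the 14 measured hindbrain and spinal cord patterning genes, all were above background on the 12-week knockout arrays and at least 12 on each 12-week wild-type array, and 0 were called at 12 weeks. All 14 were higher in the knockout, with a median of 0.92, and their summed level ran from 0.76 to 2.51 in wild type and from 3.73 to 3.95 in the knockout. With the slide block all 14 turned lower at 12 weeks, with a median of -0.75 and again 0 called. At 6 weeks all 14 were lower in the knockout, with a median of -0.81. The sums there ran from 1.97 to 4.36 in wild type and from 0.75 to 4.42 in the knockout. How much brainstem or cord each brain held, and its part in the results of the 10 genes, was not tested.

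The 10 genes did not vary as one block across arrays. Against the mean of the other members' standardised profiles over the 12 arrays, Car8 had a Pearson correlation of 0.91, Zic1 0.82, En2 and Cbln1 0.78, Neurod1 0.76 and Cbln3 0.69, while Calb1 had 0.47, Itpr1 0.32, Zic2 0.04 and Pcp2 0.03. These values describe 12 arrays that share groups and slides. Among 14849 other gene names, the profiles most like the members' mean were those of Olfr1393 (0.93), Olfr208 (0.92), Crtam (0.92), Cenpl (0.92) and Gabra6 (0.92), the last being a GABA receptor subunit of granule cells. Gabra6 itself differed by -0.28 ± 0.17 at 12 weeks (limma, adjusted p = 0.227).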

How the data were processed

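The submitters' processing notes name Agilent Feature Extraction 10.7.3.1 as the software that read the 12 scans. Per the file headers, the signal columns the authors deposited hold intensity of Cy3 fluorescence, with no unit of concentration, and the other columns used hold 0 or 1 and mark spots above background, saturated or outlying. The table of values that was deposited for the series is intensity too, within 0.498% of the scans' processed signal.

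From these, log2 processed signal minus the array's log2 75th percentile was computed over 59305 non-control spots without outlier spots, and spots of a probe were averaged. Probes entered the tests when some group had them marked above background on each of its 3 arrays. The tests used limma 3.58.1 under R 4.3.3 (lmFit, eBayes, 1 mean per group, all 12 arrays, 8 residual degrees of freedom, two-sided), with Benjamini-Hochberg adjustment over all 37202 probes of a comparison. The code was tested on simulated data.

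The labels call the replicates biological, and p-values measure the spread between these samples. The members and lists were chosen with earlier results of these data known. All members are named. From other lists up to 4 called genes per list and comparison are named, cerebellar lists first, beside relatives, partners and the profiles most like the members'; Barhl1, Gabra6 and the uncalled relatives and partners were singled out beyond that rule, after their values were seen. Of the 15 probes, 13 were matched to their RefSeq symbol by accession. A few genes of these lists are counted but not reported by name here.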

Additional observations from a re-analysis of the deposited data

Results flagged for a closer look

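Zic5, the neighbour of Zic2, differed in its genotype effect between ages. The effect at 12 weeks minus that at 6 weeks was -0.95 ± 0.14 on the log2 scale (limma interaction term, adjusted p = 0.049), and every knockout array lay below every wild-type array at each age. The call was lost in 11 of 16 other settings, with adjusted p-values there from 0.064 to 0.198. Those were slide as a fixed block (-0.73, adjusted p = 0.133), as a random block (0.081) or by slide column (0.106), the replicate block (0.083), normexp background correction (-0.26, 0.186), quantile normalization (0.082), median scaling (0.075), no filter on dim probes (0.126), eBayes with trend and robust (0.076), and centring within probe composition classes without (0.064) and with the slide block (0.198). Leaving out each of the 12 arrays in turn kept the call in 1 fit, the one without 6-week knockout replicate 3, with adjusted p-values from 0.0016 to 0.165. In that fit slide 2 held the 12-week knockout alone, so slide and this difference cannot be told apart. The Zic5 signal was dim, with a mean of 24.4 intensity units in the 12-week knockout.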

How the results depend on the processing

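At 12 weeks the count of 3 called genes became 0 with slide as a fixed block, 0 with slide as a random block, 1 with slide column as a block, 6 with normexp background correction, 1 with no filter on dim probes, and, in settings chosen after seeing the data, 1 after centring within probe composition classes and 0 with that and the slide block. Other single settings gave 2 to 4. Of all probes, 31.4% were called in the main fit and 0.0887% with slide as a fixed block. With normexp background correction 19.9% were up and 11.3% down. Quantile normalization gave 4 called genes, beside 14.5% of all probes up and 13.8% down. Median scaling gave 2, beside 24.9% up and 8.39% down. No such share was taken at 12 weeks for any other setting, including those with arrays left out, so those counts lack a background. Leaving out 1 of the 6 arrays compared gave 1 to 3. With age in the knockout the count of 0 became 1 (Neurod1) under eBayes with trend and robust, and leaving out arrays gave 0 to 1 there and for the interaction. At 6 weeks and with age in wild type it was 0 in every setting run. Slide 1 alone allows no 12-week comparison. With the replicate block the 12-week count was 2. Same-numbered arrays of different groups had correlations of their deviations from -0.19 to 0.10 over 18 pairs, and 1 array correlated best with its own number. These correlations show no pairing by number, but whether same-numbered samples shared a litter or a day cannot be told from them. No called value changed sign. Neurod1 kept its 12-week call in every setting but those with slide as a block, fixed or random. All 15 probes of the members were above background on 12 of 12 arrays. At 12 weeks slide and genotype are separated by 1 array only, and 0 of 10 genes were called with the slide block.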
